A study of Mus musculus with 36 samples.

Results

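Signals from the pre-B cell receptor and the B cell receptor keep developing B cells alive and dividing. The components of these receptors were followed here as 9 genes, chosen by name, out of the 40354 genes in the deposited count tables. These were Cd79a, Cd79b, Vpreb1, Vpreb2, Vpreb3, Igll1, Blnk, Btk and Cd22, and each was present in both count tables and in both log2 tables. The libraries come from C57BL/6J mouse bone marrow B cells infected with a retrovirus that carries C/EBPα fused to the hormone-binding domain of the estrogen receptor (C/EBPα-ER), linked to a human CD4 marker. The factor came in 3 versions, wild type (WT), R35A, in which arginine 35 is replaced by alanine, and R35K, in which it is replaced by lysine. Each was sampled at 0, 1, 3, 6, 18 and 120 hours post induction (hpi), with 2 libraries for each of the 18 combinations, 36 in all. Estradiol moves the fusion protein into the nucleus, so the 0 hpi cells carry the same construct uninduced.

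What all 18 groups share limits them as models. Every group, 0 hpi included, derives from infected B cells plated with IL-7 on mouse embryo fibroblast feeders. The protocol states that the feeders were removed before RNA extraction by their adherence, but feeder markers were found in every group, as given below. None is an uninfected B cell, and the factor comes from a retrovirus in all of them. Myeloid cytokines were added to the medium in which the cells changed fate. Per the methods, this medium was later renewed without IL-7, so time after induction and a change in IL-7 cannot be told apart. The labels call the cells B-cells up to 18 hpi and macrophages at 120 hpi. The replicates are described as biological, but whether the 2 libraries of a group came from separate animals is not given in the sources used here. The p-values measure the spread between these libraries, which need not be the spread between animals. Over 9244 well-counted genes, the median squared difference between the 2 libraries of a group was 0.970 to 2.40 times that of counting noise. In bulk RNA, fewer cells expressing a gene and less RNA per cell cannot be told apart, and this holds for every level below.

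As background, the pre-B cell receptor is assembled when a pro-B cell has made a functional immunoglobulin heavy chain but no light chain yet. A surrogate light chain, built from VpreB (encoded by Vpreb1 and Vpreb2) and λ5 (encoded by Igll1), takes the place of the missing partner. The heavy chain carries no signalling tail of its own, so the receptor signals through the heterodimer of Igα (Cd79a) and Igβ (Cd79b), whose cytoplasmic tyrosine motifs recruit the kinase Syk. Blnk is the adaptor that Syk phosphorylates, and Btk is the kinase that docks on it to activate phospholipase Cγ. Vpreb3 encodes a VpreB-like protein that binds immunoglobulin chains in the endoplasmic reticulum. Cd22 is a sialic-acid-binding receptor whose inhibitory motifs recruit the phosphatase SHP-1 and dampen the signal. The surrogate light chain genes are switched off as normal B cell development proceeds, whereas Cd79a, Cd79b, Blnk, Btk and Cd22 stay on in mature B cells, and Btk is also a gene of macrophages and other myeloid cells.

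The libraries held 13044456 to 23131776 counts (median 15471229.5), and expression is given below as CPM, counts scaled to library size, with TMM factors over the 36 libraries. The labelled cell types were checked with marker lists. The 7 markers of pro-B and pre-B cells summed to 2030.2 to 2176 CPM at 0 hpi and 63.2 to 128 CPM at 120 hpi, where Il7r supplied 108 and 121 CPM of the WT sums and Rag2 had 0 counts in both WT libraries. At 1 hpi 6 of the 7 were called lower in each construct, beside 9.27% (WT), 18.9% (R35A) and 17.4% (R35K) of all genes tested. With R35K 1 was called higher (background 15.5%). At 120 hpi 6 were again called lower in each (background 40.2%, 39.0% and 38.5%), and 1 was called higher with WT (23.1%). The 5 mature B cell markers summed to 123 to 131 CPM at 0 hpi. At 18 hpi they still summed to 64.8 to 87.0 CPM, and at 120 hpi to 2.56 to 5.46 CPM. The 7 macrophage markers, all detected at 0 hpi, summed to 57.9 to 64.9 CPM there and to 18202 to 29472 CPM at 120 hpi. They were already higher at 1 hpi, where the label is B-cells, at 822 to 836 CPM with WT, 3668 to 3684 with R35A and 7746 to 7889 with R35K. The 7 markers of feeder fibroblasts were present throughout, at 914 to 1003 CPM at 0 hpi, 1773 to 2183 CPM at 1 hpi, 1313 to 2443 CPM at 18 hpi and 125 to 471 CPM at 120 hpi. At 1 hpi 7 of the 7 were called higher with WT, 6 with R35A and 5 with R35K, beside 10.7%, 18.3% and 15.5% of all genes tested. The part of these feeder markers in the levels below was not tested. The 4 neutrophil markers summed to 31.6 to 40.1 CPM at 0 hpi and 1.97 to 5.77 CPM at 18 hpi, and the T cell, NK cell and erythroid lists summed to at most 1.64 CPM in any library.

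Igll1, Vpreb1 and Vpreb2, 3 of the 9 genes, sit on mouse chromosome 16 (coordinates in mm10, GENCODE vM21). Igll1 (chr16:16860671-16863985, minus strand) and Vpreb1 (chr16:16868403-16870843, minus strand) are neighbours, and Vpreb2 (chr16:17980428-17981273, plus strand) lies further along. Vpreb3 is at chr10:75943057-75949657 (plus), Cd79a at chr7:24897381-24902197 (plus), Cd22 at chr7:30865402-30880342 (minus), Cd79b at chr11:106311341-106314762 (minus), Blnk at chr19:40928927-40994535 (minus) and Btk at chrX:134542336-134583570 (minus). All are protein-coding. Vpreb1 overlaps Top3b over 108 bases on the opposite strand, Cd22 overlaps the antisense gene Gm29439, Vpreb3 overlaps the pseudogene Gm16221, and Btk overlaps the pseudogene Gm15154. The library kit marks strand, but the strand column the authors counted is not given in the sources used here.

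Vpreb1 and Vpreb2 are near-copies, which matters for every value given for either. Over the 429 coding bases the 2 genes differ at 9 positions, an identity of 97.9%. Reads were 50 bases long, and 233 of the 717 stretches of 50 bases in the Vpreb1 transcript (32.5%) and 233 of the 710 in the Vpreb2 transcript (32.8%) occur in the other gene as well. The counting option named by the authors counts only reads with a single place in the genome, so the counts of this pair rest on the remaining part of each transcript, and the split between the 2 genes is uncertain. The coding stretch below holds 5 of the 9 differences and shows what a read has to cover to be assigned. It runs 5′ to 3′ on the coding strand from coding base 328 to 387, at chr16:16868638-16868697 (minus) for Vpreb1 and chr16:17980979-17981038 (plus) for Vpreb2, with the bases that differ in capitals.
Vpreb1: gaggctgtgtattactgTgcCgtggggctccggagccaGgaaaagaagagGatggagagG
Vpreb2: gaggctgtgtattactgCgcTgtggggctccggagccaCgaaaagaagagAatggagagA
For Igll1, Vpreb3, Cd79b, Blnk and Btk, 0 such stretches were shared with another gene, against 8.31% for Cd79a and 10.3% for Cd22.

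Since all 9 genes fell in the first hour, their promoters were also read. RefSeq (GRCm38.p6) held a promoter for 8 of the 9, all but Cd79b, and the 250 bases before each start were searched on both strands for 4 short motifs. The sequence CAGGTG, an E-box of the type bound by E2A, was found in 6 of the 8 (Cd79a, Vpreb1, Vpreb2, Igll1, Blnk and Cd22) and in 17.2% of all 32851 promoters. GAGGAA, the core of the PU.1 and Spi-B box, was found in 3 (Cd79a, Vpreb1 and Vpreb2) and in 23.3% of all promoters. The Ebf1 palindrome, whose arms TCCC and GGGA stand 2 bases apart, was found in Cd22 and in 0.779% of all promoters, and TTNNGCAA, a C/EBP-type sequence, was found in 0 of the 8 and in 9.56% of all. A match is a run of letters and not a bound site. In Vpreb1 and Vpreb2 the first 2 motifs stand 1 base apart, an arrangement looked for after it was seen in these near-copies and found in 9 of the 32851 promoters (0.0274%). The windows are printed 5′ to 3′ on the gene's strand, without bases that GENCODE places in an exon of a coding transcript, and with the motifs in capitals, none of which overlaps another. They are shown for the surrogate light chain pair, for Igll1, for Cd79a and for Btk, 1 of the 2 genes with 0 matches. The other was Vpreb3, which did not come back at 120 hpi as Btk did. A link between matches and levels was not tested.
Vpreb1, chr16:16869256-16869505 (minus): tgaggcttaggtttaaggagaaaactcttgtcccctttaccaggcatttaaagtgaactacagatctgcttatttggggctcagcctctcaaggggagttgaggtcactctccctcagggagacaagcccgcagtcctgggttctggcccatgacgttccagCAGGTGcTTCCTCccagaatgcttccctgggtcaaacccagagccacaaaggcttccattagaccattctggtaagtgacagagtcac
Vpreb2, chr16:17980315-17980427 (plus): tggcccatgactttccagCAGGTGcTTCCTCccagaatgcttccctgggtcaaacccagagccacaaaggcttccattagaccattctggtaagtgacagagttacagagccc
Igll1, chr16:16863986-16864235 (minus): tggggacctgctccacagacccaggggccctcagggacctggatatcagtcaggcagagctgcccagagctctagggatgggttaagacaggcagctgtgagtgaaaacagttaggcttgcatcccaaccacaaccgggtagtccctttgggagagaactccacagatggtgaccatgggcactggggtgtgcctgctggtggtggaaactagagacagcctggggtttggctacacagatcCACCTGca
Cd79a, chr7:24897247-24897380 (plus): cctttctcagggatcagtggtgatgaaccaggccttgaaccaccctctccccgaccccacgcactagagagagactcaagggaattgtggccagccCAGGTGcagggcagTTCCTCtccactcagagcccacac
Btk, chrX:134583141-134583390 (minus): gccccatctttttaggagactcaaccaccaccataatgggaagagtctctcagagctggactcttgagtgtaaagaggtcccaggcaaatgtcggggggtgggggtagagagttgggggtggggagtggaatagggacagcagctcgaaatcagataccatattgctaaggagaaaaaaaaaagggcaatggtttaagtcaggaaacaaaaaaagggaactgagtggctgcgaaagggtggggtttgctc

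Before induction the complete set was expressed in all 3 constructs. Per kilobase of the longest coding transcript, Igll1 was the most abundant, at 686 CPM per kb in WT cells, followed by Cd79b (397), Vpreb1 (342), Vpreb3 (309), Cd79a (214) and Blnk (186). Btk (56.1), Vpreb2 (43.4) and Cd22 (24.2 CPM per kb) were the lowest, so that VpreB transcripts at this stage came mainly from Vpreb1 as far as the counts can separate the pair. The order was the same for R35A and R35K cells. It depends on the length chosen. All annotated exons together span 2164 bases for Igll1 against 870 in the transcript used, and 5991 against 2097 for Blnk, but 1431 by either measure for Cd79b. Levels at 0 hpi were slightly lower with R35A than with WT, with log2 differences of -0.17 to -0.02 and with the libraries of the 2 constructs not overlapping for 8 of the 9 genes, as for 22.3% of all genes tested. In edgeR's quasi-likelihood test with Benjamini-Hochberg adjustment, 0 of the 9 were called, against a background of 0% of the 16988 genes tested, and 7 of the 9 had an unadjusted p under 0.05, as did 9.52% of all genes. A call here and below requires a difference of at least 1.5-fold in either direction and an adjusted p of at most 0.05. Likewise 0 of 9 were called for R35K against WT at 0 hpi (background 0%, log2 differences -0.16 to 0.00), and 5 of 9 had an unadjusted p under 0.05, as did 5.85% of all genes. The DESeq2 Wald test called 0 members in both comparisons.

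**Figure D1:**
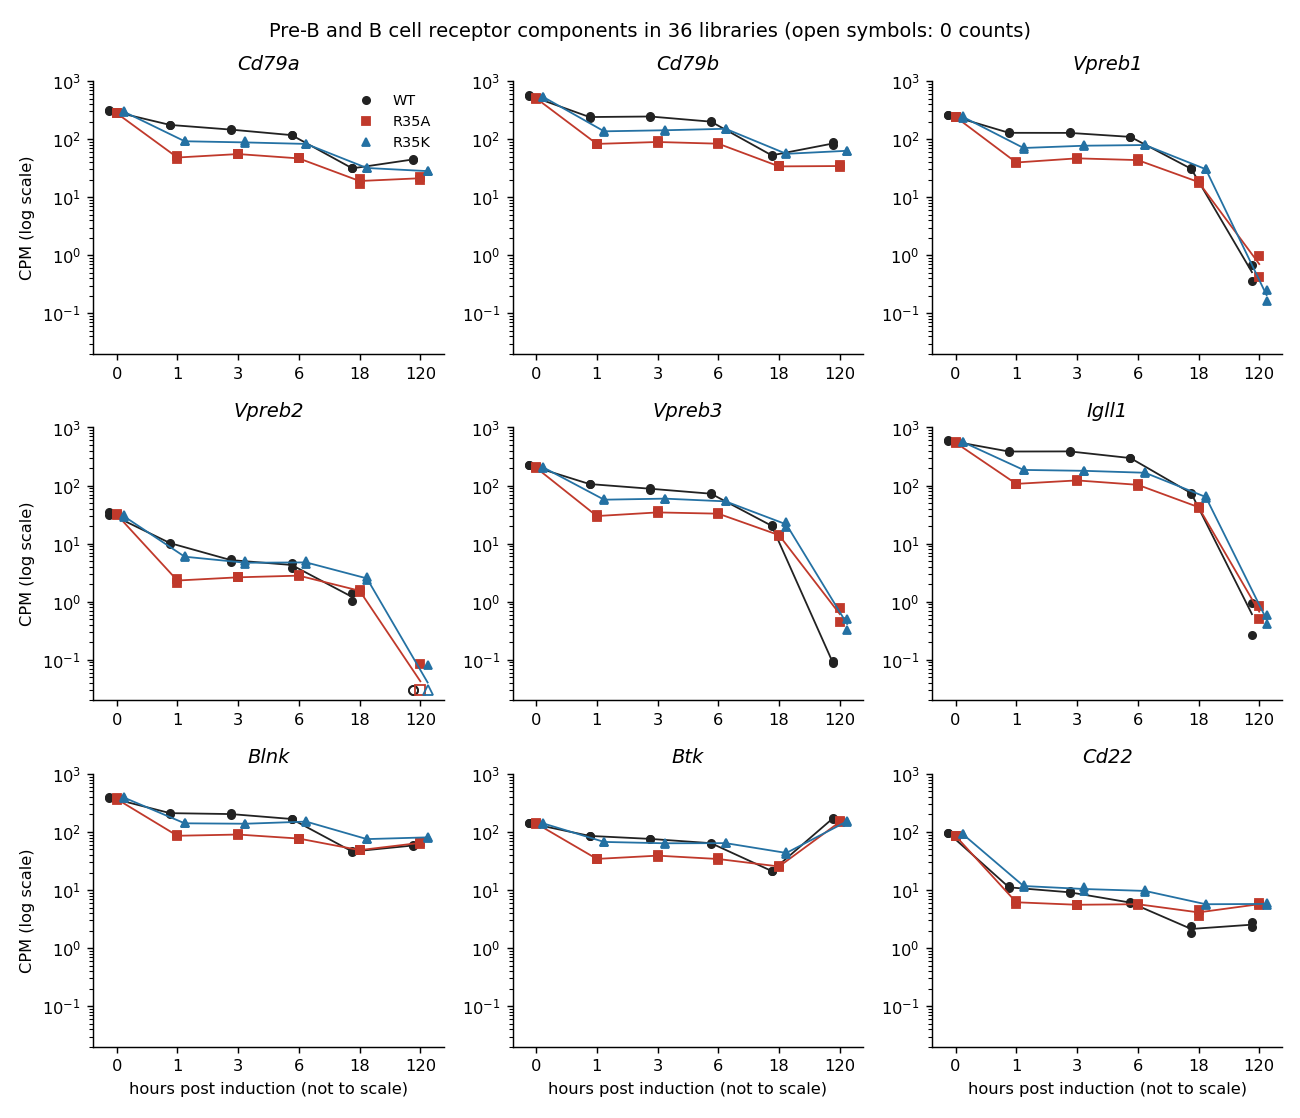
CPM (log scale) of each gene against hours post induction (evenly spaced, not to scale) for WT, R35A and R35K, with 1 symbol per library, lines through the means of 2 libraries and open symbols at the bottom for libraries with 0 counts. Every gene falls at 1 hpi, the Vpreb1, Vpreb2, Vpreb3 and Igll1 panels end below 1 CPM at 120 hpi, and Btk alone returns to its 0 hpi level.

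All 9 genes fell within the first hour in every construct, and by how much depended on the construct. After 1 hour of WT induction, between 11.6% (Cd22) and 64.5% (Igll1) of the 0 hpi level was left, with a median of 48.9% over the 9 genes. With R35A the range was 7.20% (Cd22) to 24.5% (Btk) with a median of 16.4%, and with R35K it was 12.8% (Cd22) to 48.1% (Btk) with a median of 29.1%. All 9 were called lower in each construct, where the background of genes called lower was 9.27% for WT, 18.9% for R35A and 17.4% for R35K. The median log2 change of the 9 was -1.01, -2.63 and -1.83 respectively, beside medians over all genes tested of -0.01, -0.01 and -0.04. The libraries of R35A lay below those of WT for all 9 genes at 1 hpi, as for 34.6% of all genes tested, and below those of R35K for all 9, as for 38.1%. At a 2-fold threshold, 5 of the 9 were called lower in WT cells at 1 hpi, beside 4.33% of all genes.

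The 9 genes stayed called lower at 3, 6 and 18 hpi in every construct. The background of genes called lower at these times was 11.5%, 14.7% and 23.2% for WT, 19.0%, 19.2% and 21.6% for R35A, and 16.8%, 17.8% and 20.5% for R35K. At 120 hpi 8 of the 9 were called lower in each construct, all but Btk, where the background had grown to 40.2%, 39.0% and 38.5%. At that time the median log2 change over all genes was itself below 0 (-0.36, -0.31 and -0.28 for WT, R35A and R35K), and it was -0.20, -0.18 and -0.14 with DESeq2 size factors.

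**Figure D2:**
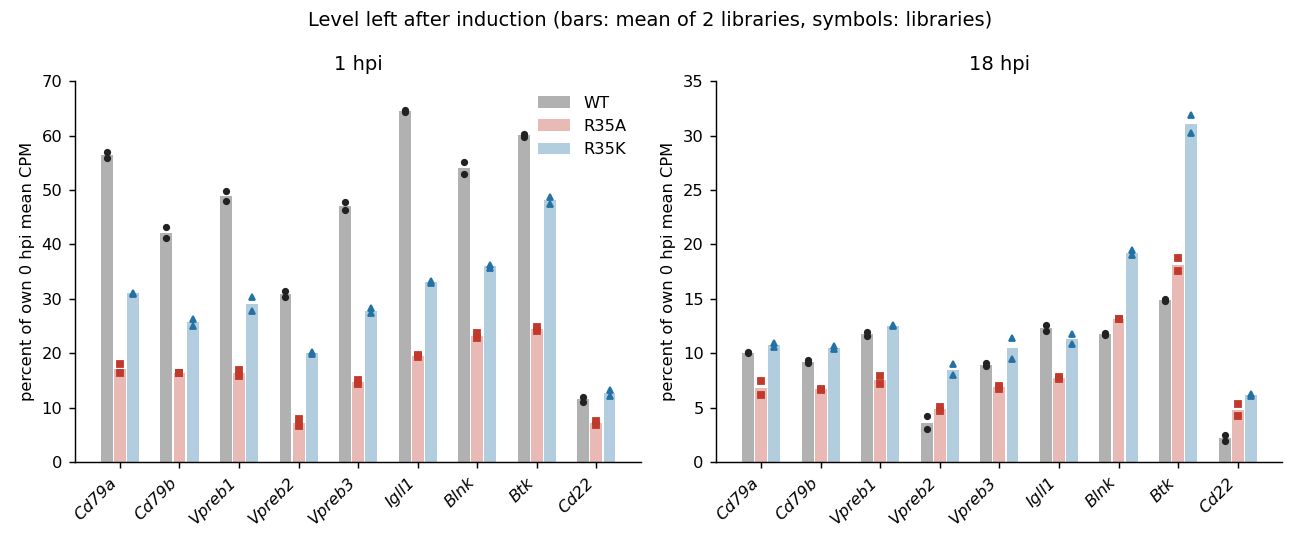
Percent of each construct's own mean CPM at 0 hpi that was left at 1 hpi (left) and at 18 hpi (right), for the 9 genes in WT, R35A and R35K. Bars are means of 2 libraries and symbols the libraries. At 1 hpi R35A is the lowest for every gene and WT the highest for every gene but Cd22, for which R35K is the highest. At 18 hpi WT is the lowest for Vpreb2, Blnk, Btk and Cd22.

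The surrogate light chain gene Igll1 gave the clearest view of the time course, because it was abundant and shared no 50-base stretch with another gene. In WT cells it measured 596 and 599 CPM at 0 hpi, 384 and 386 at 1 hpi, 380.0 and 394 at 3 hpi, 298 and 297 at 6 hpi, 75.2 and 72.2 at 18 hpi and 0.265 and 0.955 at 120 hpi. It changed little from 1 to 3 hpi (-0.02 ± 0.04 on the log2 scale, SE), fell steeply between 6 and 18 hpi (-2.0 ± 0.04) and all but disappeared by 120 hpi. With R35A it measured 541 and 554 CPM at 0 hpi, 106 and 108 at 1 hpi, 122 and 123 at 3 hpi, 99.1 and 107 at 6 hpi, 41.7 and 43.1 at 18 hpi and 0.511 and 0.834 at 120 hpi, so that a single hour took it to 19.5% of its starting level. R35K lay in between, at 555 and 567 CPM at 0 hpi, 185 and 186 at 1 hpi, 180.0 and 178 at 3 hpi, 169 and 163 at 6 hpi, 66.1 and 60.8 at 18 hpi and 0.584 and 0.406 at 120 hpi. The 2 libraries of each group were close together at every time up to 18 hpi, and the constructs did not overlap at 1, 3, 6 or 18 hpi. At 120 hpi the raw counts were 3 and 10 for WT, 6 and 11 for R35A and 7 and 5 for R35K, with overlapping groups. The WT level was 1001-fold below 0 hpi, with a 95% exact Poisson interval of 585 to 1879.7 that covers counting error only.

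Vpreb1, the partner of Igll1 in the surrogate light chain, followed nearly the same course. In WT libraries it was at 262 and 262 CPM at 0 hpi, 131 and 126 at 1 hpi, 125 and 131 at 3 hpi, 109 and 109.6 at 6 hpi, 30.3 and 31.3 at 18 hpi and 0.353 and 0.669 at 120 hpi. R35A libraries had 241 and 242 CPM at 0 hpi, 41.0 and 38.1 at 1 hpi, 19.1 and 17.4 at 18 hpi and 0.426 and 0.985 at 120 hpi, the lowest of the 3 constructs at 1 and 18 hpi. R35K libraries had 232 and 251 CPM at 0 hpi, 67.3 and 73.4 at 1 hpi, 30.3 and 30.4 at 18 hpi and 0.250 and 0.162 at 120 hpi, overlapping those of WT at 18 hpi. Group means of log2 CPM of the 2 genes had a Pearson r of 0.996 over the 18 groups, which share libraries and the same fall to 120 hpi. At 120 hpi Vpreb1 had 4 and 7 counts with WT, 5 and 13 with R35A and 3 and 2 with R35K. The difference between R35K and R35A in the change to 120 hpi, -1.77 ± 0.58 on the log2 scale, was not called (adjusted p = 0.055 by edgeR), but it was called without R35A replicate 1 at 120 hpi (-2.22).

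Vpreb2 started lower than Vpreb1, and a smaller share of it was left at 1 hpi in every construct. Its WT libraries held 34.8 and 31.0 CPM at 0 hpi, 10.4 and 10.0 at 1 hpi, 5.54 and 4.87 at 3 hpi, 3.86 and 4.72 at 6 hpi, 1.02 and 1.39 at 18 hpi and 0 and 0 at 120 hpi. R35A took it to 2.51 and 2.12 CPM at 1 hpi, 7.29% of the starting level, after which it measured 2.64 and 2.62 CPM at 3 hpi, 2.83 and 2.78 at 6 hpi, 1.60 and 1.48 at 18 hpi and 0.0852 and 0 at 120 hpi. In R35K cells it measured 28.4 and 30.7 CPM at 0 hpi, 5.89 and 6.01 at 1 hpi, 4.99 and 4.38 at 3 hpi, 4.39 and 5.10 at 6 hpi, 2.36 and 2.68 at 18 hpi and 0 and 0.0812 at 120 hpi. Vpreb2 was the only member that was called lower between 1 and 3 hpi in WT cells (-1.0 ± 0.13, adjusted p = 1.5e-07 by edgeR). By 18 hpi the order of the constructs had turned: WT had the lowest level (16 and 24 counts), R35A the next (25 and 29) and R35K the highest (40 and 42), and the change from 0 hpi was called as smaller with R35K than with WT (1.2 ± 0.26). At 120 hpi it was at 0 counts in both WT libraries, which against 3 counts over the group is at least 239-fold lower than at 0 hpi. The counts at 120 hpi were 1 and 0 for R35A and 0 and 1 for R35K, and no difference between constructs was detectable at this depth.

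Vpreb3, the VpreB-like protein of the endoplasmic reticulum, measured 225 and 226 CPM at 0 hpi, 108 and 105 at 1 hpi, 85.4 and 90.8 at 3 hpi, 70.7 and 73.9 at 6 hpi, 19.9 and 20.5 at 18 hpi and 0.0884 and 0.0955 at 120 hpi with WT. With R35A it was at 201 and 205 CPM at 0 hpi, 30.5 and 29.1 at 1 hpi, 13.7 and 14.3 at 18 hpi and 0.767 and 0.455 at 120 hpi, and with R35K at 209 and 200.4 CPM at 0 hpi, 58.0 and 56.2 at 1 hpi, 19.4 and 23.4 at 18 hpi and 0.501 and 0.325 at 120 hpi. At 120 hpi it was the 1 of these 4 genes called between constructs, with 1 and 1 counts for WT, 9 and 6 for R35A and 6 and 4 for R35K. The difference of R35A from WT was called (2.76 ± 0.69, adjusted p = 0.0044 by edgeR) but not without R35A replicate 1 at 120 hpi (2.37), and that of R35K from WT was not (2.21 ± 0.78, adjusted p = 0.065). Relative to 0 hpi these counts are 2454-fold lower with WT (exact Poisson interval 679 to 20265) and 338-fold lower with R35A (205 to 603).

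The signalling heterodimer behaved differently at the end of the time course. Cd79a, which encodes Igα, measured 310.2 and 312 CPM at 0 hpi, 177 and 174 at 1 hpi, 142 and 149 at 3 hpi, 115 and 119 at 6 hpi, 31.5 and 31.2 at 18 hpi and 44.5 and 44.9 at 120 hpi in WT cells. In R35A cells it measured 282 and 278 CPM at 0 hpi, 50.5 and 45.9 at 1 hpi, 55.8 and 54.8 at 3 hpi, 46.7 and 46.4 at 6 hpi, 17.2 and 20.8 at 18 hpi and 22.2 and 20.2 at 120 hpi, below every WT library from 0 to 120 hpi. The R35K libraries, at 289.7 and 302 CPM at 0 hpi, 92.3 and 91.4 at 1 hpi, 84.5 and 91.0 at 3 hpi, 81.8 and 83.4 at 6 hpi, 32.3 and 31.3 at 18 hpi and 28.5 and 27.8 at 120 hpi, lay between the other two at 0, 1, 3, 6 and 120 hpi. It fell to 10.1% of its 0 hpi level at 18 hpi with WT and stood at 14.4% at 120 hpi, when the surrogate light chain was at 0.102% for Igll1 and 0.195% for Vpreb1. Cd79b, which encodes Igβ, gave 555 and 582 CPM at 0 hpi, 234 and 246 at 1 hpi, 53.3 and 51.8 at 18 hpi and 87.8 and 79.8 at 120 hpi with WT. With R35A it gave 500.0 and 511 CPM at 0 hpi, 82.9 and 82.5 at 1 hpi, 33.8 and 34.0 at 18 hpi and 36 and 32.8 at 120 hpi, and with R35K 521 and 539 CPM at 0 hpi, 139 and 133 at 1 hpi, 56.5 and 55.1 at 18 hpi and 62.4 and 63.5 at 120 hpi. In WT cells Cd79b was higher at 120 than at 18 hpi in both libraries, a log2 difference of 0.55 ± 0.05 that stayed under the fold threshold here and passed it with DESeq2 size factors (0.59), with the 36 libraries in 1 fit (0.67), with the stricter filter (0.68) and without any 1 of the 4 libraries (0.61 to 0.74).

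At 120 hpi the libraries of WT, R35K and R35A did not overlap for either chain, and the order was WT, then R35K, then R35A. The fall from 0 hpi was called as larger with R35A than with WT for both Cd79a (-0.92 ± 0.08, adjusted p = 2.6e-13) and Cd79b (-1.11 ± 0.07, adjusted p = 4.1e-19) by edgeR. Cd79a and Cd79b were the 2 of the 9 members called lower, beside a background of 4.63%. Cd79b was also the only member called between the 2 mutants at 120 hpi (0.81 ± 0.07, higher with R35K, background 0.724%). The ratio of Cd79a to Cd79b per kilobase was 0.549 and 0.526 in the WT libraries at 0 hpi and lay between 0.430 and 0.743 over all 36 libraries, with the highest values in the 2 WT libraries at 1 hpi.

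Downstream of the receptor, the adaptor Blnk and the kinase Btk fell with the other genes and then parted. Blnk measured 394 and 387 CPM at 0 hpi, 215 and 207 at 1 hpi, 166 and 169 at 6 hpi, 46.5 and 45.4 at 18 hpi and 59.2 and 57.8 at 120 hpi with WT. With R35A it measured 358 and 381 CPM at 0 hpi, 84.3 and 87.7 at 1 hpi, 76.9 and 77.0 at 6 hpi, 48.7 and 48.6 at 18 hpi and 63.1 and 66.7 at 120 hpi, and with R35K 394 and 389 CPM at 0 hpi, 142 and 139.9 at 1 hpi, 153 and 149 at 6 hpi, 76.2 and 74.5 at 18 hpi and 81.2 and 80.3 at 120 hpi. At 120 hpi it stood at 15.0%, 17.6% and 20.6% of its starting level with WT, R35A and R35K. Its lowest group was WT at 18 hpi, just below R35A at 18 hpi, and these 2 groups did not overlap.

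Btk was also at its lowest at 18 hpi in each construct, and then came back. In WT cells it measured 141 and 143 CPM at 0 hpi, 86.0 and 85.2 at 1 hpi, 76.0 and 75.9 at 3 hpi, 62.4 and 65.8 at 6 hpi, 21.2 and 21.3 at 18 hpi and 167 and 173 at 120 hpi. In R35A cells it measured 139.6 and 141 CPM at 0 hpi, 34.8 and 33.9 at 1 hpi, 37.3 and 40.9 at 3 hpi, 35.5 and 33.0 at 6 hpi, 26.3 and 24.6 at 18 hpi and 146 and 152 at 120 hpi, and in R35K cells 142 and 138 CPM at 0 hpi, 68.3 and 66.4 at 1 hpi, 62.4 and 65.2 at 3 hpi, 64.3 and 64.1 at 6 hpi, 44.7 and 42.4 at 18 hpi and 151 and 154 at 120 hpi. In the tests it rose 7.31-fold with WT, 5.46-fold with R35A and 3.37-fold with R35K from 18 to 120 hpi (log2 2.87 ± 0.05, 2.45 ± 0.05 and 1.75 ± 0.05). It was the 1 member called higher in that interval, where 27.5%, 24.5% and 24.7% of all genes were called higher. The 120 hpi level in CPM, scaled over the 36 libraries, was 119%, 106% and 109% of that at 0 hpi. In the tests, scaled within their own fits, the log2 differences from 0 hpi were smaller, at 0.12 ± 0.04, -0.04 ± 0.04 and 0.02 ± 0.04. None of them was called. For R35A the sign of this uncalled value depended on the scaling (0.09 with DESeq2 size factors). Against the median of all genes the 3 values were 0.48, 0.27 and 0.30 under either scaling. The summed macrophage markers rose over the same interval, from between 784 and 5093 CPM at 18 hpi to the 120 hpi values given above, and their part in the return of Btk was not tested.

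Cd22, the inhibitory receptor, had the smallest share left at 1 hpi in each construct. WT induction took it from 95.4 and 97.1 CPM to 10.7 and 11.6 CPM in 1 hour, 8.50-fold lower (log2 -3.09 ± 0.08, adjusted p = 3.0e-36 by edgeR), while the other 8 members fell 1.53-fold (Igll1) to 3.18-fold (Vpreb2). It then measured 8.79 and 9.50 CPM at 3 hpi, 5.95 and 6.2 at 6 hpi, 1.85 and 2.43 at 18 hpi and 2.30 and 2.77 at 120 hpi. R35A cells went from 85.8 and 85.3 to 6.46 and 5.85 CPM at 1 hpi and were at 5.59 and 5.56 CPM at 3 hpi, 5.61 and 5.80 at 6 hpi, 4.62 and 3.63 at 18 hpi and 5.97 and 5.46 at 120 hpi. R35K cells held 91.6 and 91.8 CPM at 0 hpi, 12.2 and 11.2 at 1 hpi, 9.68 and 11.2 at 3 hpi, 9.28 and 10.0 at 6 hpi, 5.78 and 5.61 at 18 hpi and 6.01 and 5.52 at 120 hpi. Of the log2 fall seen at 18 hpi, 56.3% was reached at 1 hpi for Cd22 with WT, against 20.2% (Igll1) to 35.6% (Cd79b) for the other 8. With R35A the same share was 64.2% (Igll1) to 86.6% (Vpreb2) over the 9 members, and with R35K 51.7% (Igll1) to 74.5% (Cd22).

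For Cd22 both mutants ended above WT. At 18 hpi the 2 WT libraries had 29 and 42 counts, those of R35A 72 and 71 and those of R35K 98 and 88, with WT below both mutants. The fall from 0 hpi was called as smaller with R35A than with WT at 18 hpi (1.07 ± 0.19, adjusted p = 1.5e-05 by edgeR) and at 120 hpi (1.35 ± 0.20, adjusted p = 3.4e-07), and as smaller with R35K at 6, 18 and 120 hpi (0.74, 1.47 and 1.26). Cd22 overlaps Gm29439 on the other strand, and reads of the 2 genes are told apart only by strand.

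**Figure D3:**
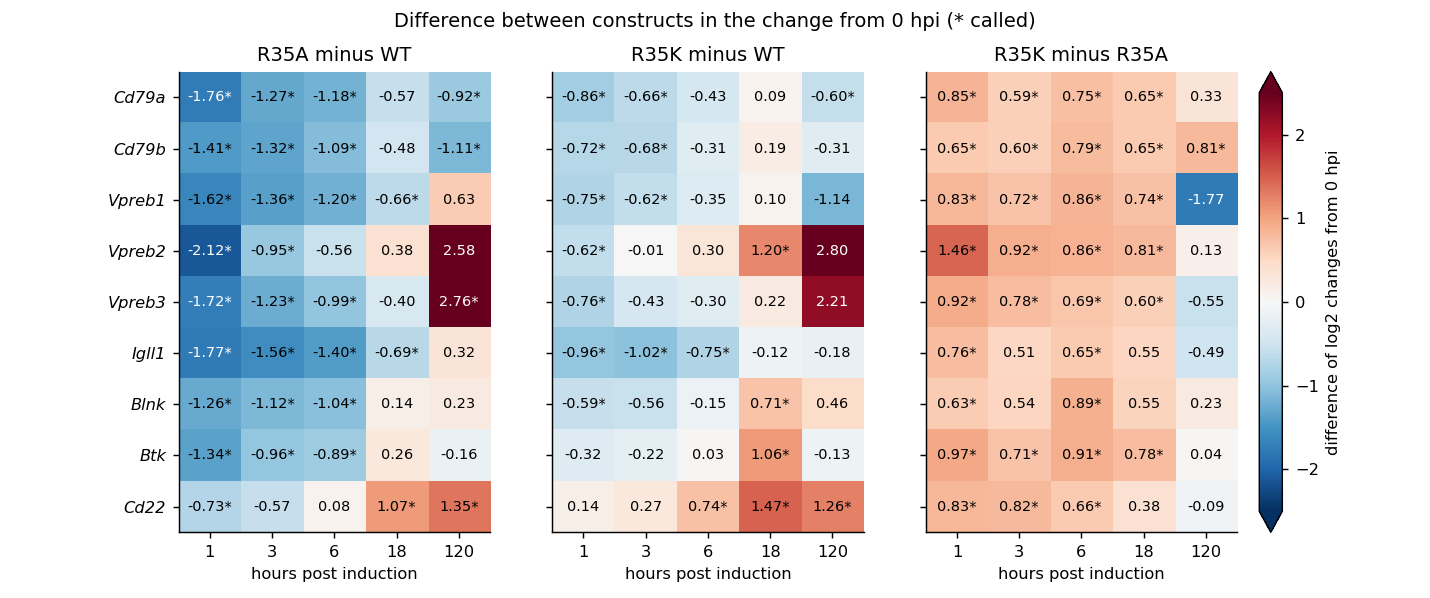
Difference between 2 constructs in the log2 change from 0 hpi for each gene and time, for R35A minus WT, R35K minus WT and R35K minus R35A, on a colour scale from blue (lower) to red (higher) that saturates at 2.5, with called values starred. At 1 hpi all 9 values of R35A minus WT are starred and below 0, and by 18 hpi Cd22 is above 0 in both comparisons with WT.

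Between R35A and WT, 9 members were called at 1 hpi and 3 at 18 hpi. At 1 hpi the fall from 0 hpi was called as larger with R35A for all 9 members, where 8.74% of genes were called lower. The differences ran from -0.73 (Cd22) to -2.12 (Vpreb2) on the log2 scale, with a median of -1.62 beside -0.02 for all genes, and the largest SE was 0.17. At 3 hpi 8 were called lower, all but Cd22, and at 6 hpi 7, all but Vpreb2 and Cd22 (background 7.43% and 5.99%). Cd22 at 3 hpi (-0.57) passed without WT replicate 1 at 3 hpi (-0.63), and Vpreb2 at 6 hpi (-0.56) passed without WT replicate 1 at 0 hpi (-0.65) or 6 hpi (-0.70) or R35A replicate 2 at 0 hpi (-0.61). At 18 hpi 2 were called lower, Vpreb1 (-0.66 ± 0.08) and Igll1 (-0.69 ± 0.06), and Cd22 was called higher (background 2.89% lower and 5.47% higher). Without R35A replicate 2 at 18 hpi the call of Vpreb1 was lost (-0.57), and Cd79a, not called at -0.57 ± 0.08, was called (-0.71), as it was without R35A replicate 2 at 0 hpi (-0.59) and with DESeq2 size factors (-0.63). At 120 hpi Cd79a and Cd79b were called lower and Vpreb3 and Cd22 higher, where 9.85% of genes were called higher.

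R35K took an intermediate place early on. Against WT, 7 members were called lower at 1 hpi, with Btk (-0.32 ± 0.06) and Cd22 (0.14 ± 0.11) not called, and 4 were called lower at 3 hpi, Cd79a, Cd79b, Vpreb1 and Igll1 (background 5.08% and 3.87%). Of the 1 hpi calls, 0 passed a 2-fold threshold, and that of Blnk (-0.59 ± 0.05) was lost without WT replicate 2 at 0 hpi (-0.57), WT replicate 1 at 1 hpi (-0.56), R35K replicate 1 at 0 hpi (-0.58) or R35K replicate 2 at 1 hpi (-0.58). That of Vpreb2 (-0.62 ± 0.15) was lost without replicate 2 at 0 hpi of WT (-0.54) or R35K (-0.56), and that of Vpreb1 at 3 hpi (-0.62) without WT replicate 2 at 3 hpi (-0.58) or R35K replicate 2 at 0 hpi (-0.56). Blnk at 3 hpi (-0.56) was called without WT replicate 1 at 3 hpi (-0.61). At 6 hpi Igll1 was called lower (-0.75 ± 0.05, background 4.53%) and Cd22 higher (background 7.66%). By 18 hpi 4 members were called higher with R35K than with WT and 0 lower, namely Vpreb2, Blnk (0.71 ± 0.06), Btk (1.06 ± 0.07) and Cd22, where 8.91% of genes were called higher. At 120 hpi Cd79a was called lower (-0.60 ± 0.08) and Cd22 higher (background 2.63% and 7.51%), and the call of Cd79a was lost without R35K replicate 2 at 0 hpi (-0.56) or 120 hpi (-0.57).

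The 2 replacements of the same residue differed from each other too. At 1 hpi the fall was called as smaller with R35K than with R35A for all 9 members, by 0.63 (Blnk) to 1.46 (Vpreb2) on the log2 scale, beside 4.15% of all genes called higher. The count was 7 at 3 hpi (not Igll1 or Blnk), 9 at 6 hpi and 6 at 18 hpi (not Igll1, Blnk or Cd22), with backgrounds of 2.25%, 4.69% and 2.26%. With DESeq2 size factors the calls of Blnk at 1 hpi (0.57), Cd79a (0.55) and Cd79b (0.57) at 3 hpi and Vpreb3 at 18 hpi (0.56) were lost. Calls near the threshold also changed in fits without 1 library, in which the filter and the scaling were redone as well. Cd79a at 3 hpi (0.59) was lost without R35A replicate 1 at 0 hpi (0.58) or replicate 2 at 3 hpi (0.58), or R35K replicate 1 at 0 hpi (0.56) or replicate 2 at 3 hpi (0.53), and Cd79b (0.60) without R35A replicate 2 at 3 hpi (0.56) or R35K replicate 1 at 0 hpi (0.58). Blnk at 1 hpi was lost without R35A replicate 2 at 0 hpi (0.58). At 18 hpi Cd79a (0.65) was lost without R35A replicate 1 (0.53), Vpreb2 (0.81) without R35A (0.75) or R35K (0.72) replicate 2, and Vpreb3 (0.60) without R35A replicate 2 at 0 hpi (0.58), R35A replicate 1 (0.57), R35K replicate 2 at 0 hpi (0.57) or R35K replicate 2 (0.46). Igll1 at 18 hpi (0.55) was called without R35K replicate 2 (0.61), and Blnk (0.55) without R35A replicate 1 at 0 hpi (0.59). R35A libraries lay below R35K libraries for all 9 members at 3, 6 and 18 hpi as well as at 1 hpi, where 35.8%, 40.2% and 35.6% of all genes did so at the 3 later times. The R35K libraries were deposited in tables of their own, so construct and table cannot be told apart, and the comparison rests on the change from each construct's own 0 hpi. R35A minus WT, R35K minus WT and R35K minus R35A share samples and are not independent of each other.

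R35A at 1 hpi was also compared with WT at 18 hpi. For 6 of the 9 members the R35A cells after 1 hour were still called higher, Cd79a (0.60 ± 0.06), Cd79b (0.64 ± 0.05), Vpreb2 (0.91 ± 0.25), Blnk (0.89 ± 0.05), Btk (0.68 ± 0.06) and Cd22 (1.5 ± 0.17), against a background of 7.66%. Igll1 (0.52 ± 0.05), Vpreb3 (0.54 ± 0.07) and Vpreb1 (0.34 ± 0.06) stayed under the fold threshold. With a 2-fold threshold only Cd22 was called, where 603 of the 16988 genes tested were called higher. DESeq2 size factors ended the call of Cd79a (0.56). Leaving out R35A replicate 1 at 1 hpi ended the calls of Cd79a (0.54) and Vpreb2 (0.79), and leaving out WT replicate 1 at 18 hpi ended that of Vpreb2 (0.74). Vpreb3 was called without R35A replicate 2 at 1 hpi (0.59).

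Between successive times, most calls fell after 6 hpi. In WT cells Vpreb2 was called lower from 1 to 3 hpi (background 0.683%) and Cd22 from 3 to 6 hpi (-0.61 ± 0.12, background 0.553%), a call that was lost with DESeq2 size factors (-0.57) and without WT replicate 2 at 3 hpi (-0.55) or replicate 1 at 6 hpi (-0.58). In the mutants 0 members were called in either interval by edgeR or by the DESeq2 Wald test, where edgeR called 0.553% and 0.177% of genes with R35A and 0.347% and 1.19% with R35K. The members with an unadjusted p under 0.05 numbered 6 and 4 for R35A, where 17.8% and 12.8% of all genes had one, and 2 and 4 for R35K, where 16.0% and 22.5% had one. From 6 to 18 hpi all 9 were called lower with WT (log2 -2.0 to -1.48), 7 with R35A (-1.30 to -0.66, not Btk or Cd22) and 8 with R35K (-1.41 to -0.74, not Btk), with backgrounds of 10.0%, 2.76% and 4.28%. With R35A, Cd22 was called from 6 to 18 hpi without R35A replicate 1 at 18 hpi (-0.65), and Vpreb2 (-0.87) was not without R35A replicate 2 at 18 hpi (-0.81). From 18 to 120 hpi Vpreb1, Vpreb2, Vpreb3 and Igll1 were called lower in every construct, where 33.0%, 29.4% and 28.5% of genes were called lower, and Cd79a, Cd79b, Blnk and Cd22 were not called in any. Cd22 was called higher from 18 to 120 hpi with R35A (0.38 ± 0.16) without R35A replicate 1 at 18 hpi (0.65).

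**Figure D4:**
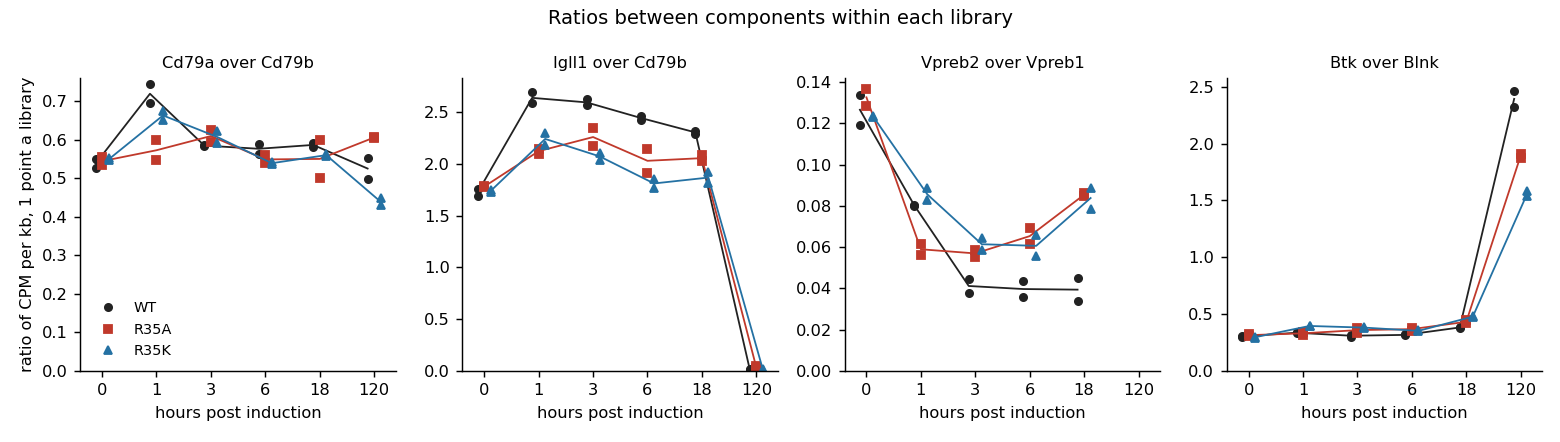
Ratio of CPM per kilobase between 2 components within each library against hours post induction, with 1 symbol per library and lines through the means, for Cd79a over Cd79b, Igll1 over Cd79b, Vpreb2 over Vpreb1 (120 hpi left out, where Vpreb2 had at most 1 count) and Btk over Blnk. The first ratio stays between 0.430 and 0.743, the second falls below 0.05 at 120 hpi, and the last rises above 1.5 at 120 hpi.

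Ratios per kilobase between 2 transcripts of the same library, which no scaling between libraries can change, were also taken. Their size rests on the transcript lengths used, while their relative change between libraries does not. Igll1 over Cd79b was 1.76 and 1.69 in the WT libraries at 0 hpi, 2.70 and 2.59 at 1 hpi, 2.32 and 2.29 at 18 hpi and 0.00497 and 0.0197 at 120 hpi. Igll1 thus rose relative to Cd79b in the first hour of WT induction, and at 120 hpi almost no Igll1 was left beside it. In R35A libraries the ratio was 1.78 and 1.78 at 0 hpi and 2.10 and 2.15 at 1 hpi. Vpreb2 over Vpreb1 started at 0.134 and 0.119 with WT, had fallen to 0.0448 and 0.0375 by 3 hpi, and stood at 0.0339 and 0.0448 after 18 hours. With R35A it was 0.0617 and 0.0562 at 1 hpi and 0.0847 and 0.0861 at 18 hpi, and with R35K 0.0787 and 0.0889 at 18 hpi, above both WT libraries. Btk over Blnk was 0.297 and 0.306 at 0 hpi and 2.32 and 2.47 at 120 hpi with WT, and 1.91 and 1.88 with R35A and 1.54 and 1.58 with R35K at 120 hpi.

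The genes around the receptor were followed in 3 lists. As backgrounds for all 3, 9.27%, 18.9% and 17.4% of all genes were called lower at 1 hpi with WT, R35A and R35K. Called higher were 10.7%, 18.3% and 15.5%. For R35A against WT at 1 hpi the shares were 8.74% lower and 5.29% higher. Among 22 signal transducers, 7 were called lower and 1 higher at 1 hpi with WT (list median -0.09, beside the all-gene medians given for the members), 9 and 2 with R35A (-0.35) and 8 and 3 with R35K (-0.13). Among the largest WT changes were those of Blk, a Src-family kinase of B cells (-2.21 ± 0.05) and the scaffold Bank1 (-1.68 ± 0.24). The gene called higher with WT was Nfatc1 (0.60 ± 0.04), named after its value was seen. R35A differed from WT at 1 hpi for 4 genes lower and 1 higher, led by Prkcb, the protein kinase Cβ (-1.64 ± 0.10), Blk (-1.53 ± 0.09) and, in the other direction, the paracaspase Malt1 (1.21 ± 0.07). At 120 hpi more transducers were called higher than lower in every construct (10 against 5 of the 22 with WT, 7 against 5 with R35A, 8 against 4 with R35K). Of all genes, 23.1%, 24.2% and 25.4% were called higher and 40.2%, 39.0% and 38.5% lower. Among those called higher was the kinase Lyn (2.38 ± 0.04 with WT), also named after its value was seen.

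Of 12 inhibitory regulators, 5 were called lower and 2 higher with WT at 1 hpi (median -0.41), 8 and 2 with R35A (-1.08), and 6 and 2 with R35K (-0.62). The 2 that rose were Pirb (3.54 ± 0.14 with WT) and Lair1 (1.77 ± 0.26), inhibitory receptors that myeloid cells also carry, and the largest fall was that of Cd72, a B cell receptor with an inhibitory motif (-1.56 ± 0.06). R35A exceeded WT for Pirb (1.83 ± 0.28) and fell further for 5 genes, led by the adaptor Pag1 (-1.27 ± 0.06) and the phosphatase gene Inpp5d (-1.02 ± 0.05). At 120 hpi 5 were called higher and 4 lower with each of the 3 constructs. Of all genes, 23.1%, 24.2% and 25.4% were called higher there with WT, R35A and R35K, and 40.2%, 39.0% and 38.5% lower.

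**Figure D5:**
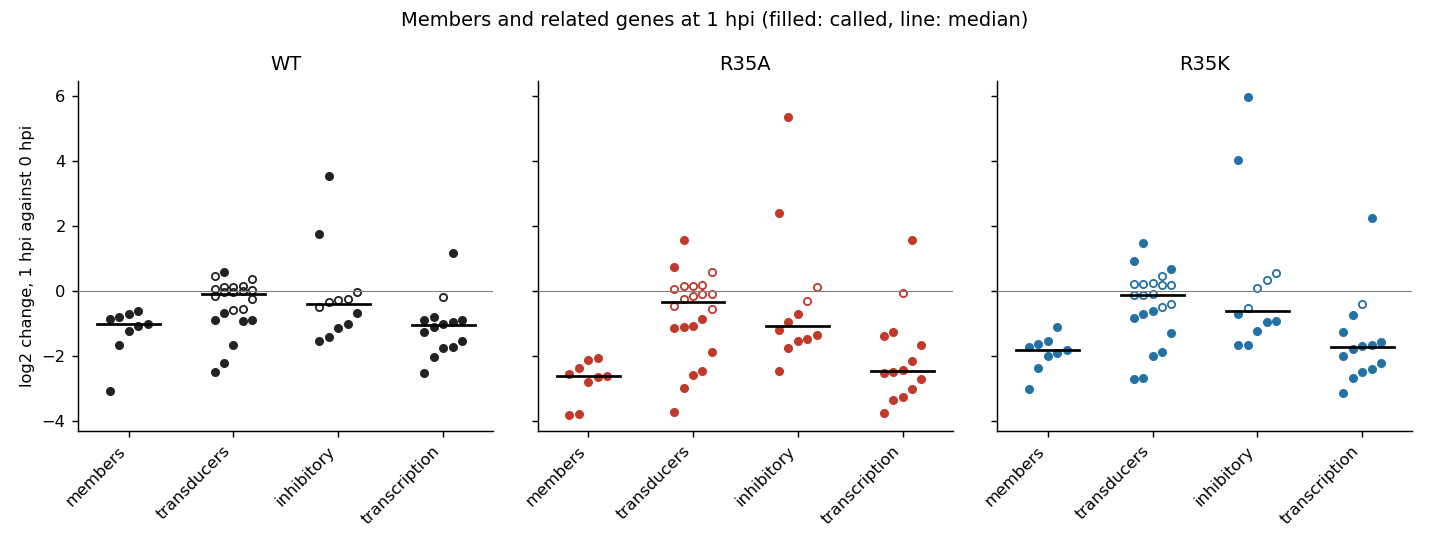
Log2 change at 1 hpi against 0 hpi for the 9 members and the genes of 3 related lists (signal transducers, inhibitory regulators, transcriptional regulators) in WT, R35A and R35K, with filled symbols for called genes and a line at each median. The members and the transcriptional regulators lie mostly below 0 in all 3 panels, while the transducers spread around 0.

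Transcriptional regulators known to act on the pre-B cell receptor genes also fell in the first hour. Of 14, 12 were called lower and 1 higher at 1 hpi in each construct, with medians of -1.06 for WT, -2.45 for R35A and -1.73 for R35K. The largest WT changes were in Ikzf3, which encodes the Ikaros-family factor Aiolos (-2.52 ± 0.05), the repressor Bach2 (-2.02 ± 0.04) and Pax5, the B lineage commitment factor that acts on Cd79a (-1.75 ± 0.04). R35A gave a larger fall than WT for 10 of the 14 at 1 hpi, beside 8.74% of all genes. The largest of these differences were those of Lef1 (-1.63 ± 0.08), Pax5 (-1.61 ± 0.06) and the coactivator Pou2af1 (-1.48 ± 0.05). At 120 hpi 11 were called lower with WT and 12 with either mutant, where 40.2% (WT), 39.0% (R35A) and 38.5% (R35K) of all genes were. The gene called higher at 1 hpi was Spi1, which encodes PU.1 and was named after its value was seen (1.18 ± 0.06 with WT, 1.57 ± 0.05 with R35A and 2.26 ± 0.06 with R35K).

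With the 18 groups ordered by mean CPM, WT at 0 hpi was the highest group for 7 of the 9 members, with R35K at 0 hpi highest for Blnk and WT at 120 hpi for Btk. Of the 17 pairs of neighbours in that order, the libraries overlapped in 3 for Cd79a, 5 for Cd79b, 6 for Vpreb1, 8 for Vpreb2, 4 for Vpreb3, 4 for Igll1, 2 for Blnk, 5 for Btk and 10 for Cd22. The 120 hpi groups of Igll1 and Vpreb2 were among the overlapping neighbours, as were the 1 and 3 hpi groups of WT and R35K for Cd22. The lowest group was WT at 18 hpi for Blnk, Btk and Cd22, R35A at 18 hpi for Cd79a and Cd79b, and a 120 hpi group for the other 4.

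Over the 18 group means of log2 CPM, the members were also compared with each other and with all genes. Cd79a and Cd79b had a Pearson r of 0.994 with each other, and Vpreb1, Vpreb2, Vpreb3 and Igll1 had 0.963 to 0.996. Btk stood apart, at -0.279 with Igll1 and 0.524 with Cd22. Among 17277 genes, those with a profile very like each member's included, with their r, Tbc1d10c (0.993) and Rasgrp2 (0.990) for Cd79a, Msh5 (0.990) and Ftx (0.986) for Cd79b, Aff3 (0.994) for Vpreb1, Blk (0.998) and Tmprss3 (0.996) for Vpreb2, and Mzb1 (0.995) and Polr3f (0.994) for Vpreb3. For the remaining members they included Atp1b1 (0.997) and Erg (0.994) for Igll1, Hmgn2 (0.988) and Cenpn (0.988) for Blnk, Tnfrsf13b (0.992) and Mef2c (0.991) for Btk, and Prps1l3 (0.977) and Ddx42 (0.976) for Cd22. These values are descriptions over 18 groups that share libraries, scaling and the same time course.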

How the data were processed

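RNA was sequenced from 36 libraries (3 constructs, 6 times, 2 replicates) as single-end reads of 50 bases with a stranded mRNA kit. Per the methods, the authors mapped reads to mm10 with STAR 2.5.0a, took its gene counts, and normalized them with DESeq2 1.14.1; the annotation release and the strand column are not given in the sources used here. The deposited values are raw counts of 40354 genes and, for 19067 of them, log2 normalized counts, which equalled log2(count divided by a size factor, plus 1) within 0.001 for 100% of values.

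Counts were tested with edgeR 4.0.16 (quasi-likelihood, TMM, filterByExpr) in R 4.3.3. WT and R35A shared 1 fit (24 libraries, 16988 genes tested), R35K had its own (12 libraries, 16434 genes), and comparisons of R35K with the others used all 36 (17277 genes). TMM factors in a test came from the libraries of its fit. CPM and percents of the 0 hpi level used factors over the 36 libraries, so their folds can differ from those of the tests. The common coefficient of variation was 3.17%, 3.49% and 3.27%. A call needs a difference of at least 1.5-fold and an adjusted p (Benjamini-Hochberg, over all genes tested) no higher than 0.05. The scripts were tested on simulated data. Intervals are 95% exact Poisson and cover counting error only. Alternatives were DESeq2 1.42.0, its size factors in edgeR, 2 other filters, a 2-fold threshold, unadjusted p, a replicate block and other sample sets. The authors' log2 values, as differences of group means without a test, and leaving out each library were further ones. Each fit without 1 library filtered and scaled the genes again, so its changes cannot be credited to that library alone. The 9 genes and the gene lists were chosen with earlier results of these data known. Of each list, up to 3 called genes with the largest change at 1 hpi were named, and for each of the 9 genes the 2 with the nearest profile. Levels per kilobase used the longest coding transcript in GENCODE vM21. Some results on single genes of the lists are not reported here.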

Additional observations from a re-analysis of the deposited data

Results flagged for a closer look

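The change from 0 hpi was tested for a difference between 2 constructs for the 9 genes at 5 times in 3 pairs of constructs, 135 tests in all, and 82 differences were called by edgeR's interaction terms, 41 below 0 and 41 above. Each is listed here because the effect of induction differed between constructs, in log2 units and in the order of the times given, and no cause was tested.

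For Cd79a, the Igα chain, R35A minus WT came to -1.76, -1.27, -1.18 and -0.92 at 1, 3, 6 and 120 hpi. R35K minus WT gave -0.86, -0.66 and -0.60 at 1, 3 and 120 hpi for Cd79a. Cd79a in R35K against R35A differed by 0.85, 0.59, 0.75 and 0.65 at 1, 3, 6 and 18 hpi. For Cd79b, the Igβ chain, R35A minus WT came to -1.41, -1.32, -1.09 and -1.11 at 1, 3, 6 and 120 hpi. The differences of R35K from WT for Cd79b came to -0.72 and -0.68 at 1 and 3 hpi. Between the mutants, Cd79b differed by 0.65, 0.60, 0.79, 0.65 and 0.81 at the 5 times from 1 to 120 hpi (R35K minus R35A). For Vpreb1, the main VpreB gene, R35A minus WT came to -1.62, -1.36, -1.2 and -0.66 at 1, 3, 6 and 18 hpi. R35K minus WT gave -0.75 and -0.62 at 1 and 3 hpi for Vpreb1. Vpreb1 in R35K against R35A differed by 0.83, 0.72, 0.86 and 0.74 at 1, 3, 6 and 18 hpi.

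For Vpreb2, its near-copy, R35A minus WT came to -2.12 and -0.95 at 1 and 3 hpi. The differences of R35K from WT for Vpreb2 came to -0.62 and 1.2 at 1 and 18 hpi. Between the mutants, Vpreb2 differed by 1.46, 0.92, 0.86 and 0.81 at 1, 3, 6 and 18 hpi (R35K minus R35A). For Vpreb3, the VpreB-like gene, R35A minus WT came to -1.72, -1.23, -0.99 and 2.76 at 1, 3, 6 and 120 hpi. R35K minus WT gave -0.76 at 1 hpi for Vpreb3. Vpreb3 in R35K against R35A differed by 0.92, 0.78, 0.69 and 0.60 at 1, 3, 6 and 18 hpi. For Igll1, the λ5 gene, R35A minus WT came to -1.77, -1.56, -1.40 and -0.69 at 1, 3, 6 and 18 hpi. The differences of R35K from WT for Igll1 came to -0.96, -1.02 and -0.75 at 1, 3 and 6 hpi. Between the mutants, Igll1 differed by 0.76 and 0.65 at 1 and 6 hpi (R35K minus R35A).

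For Blnk, the adaptor, R35A minus WT came to -1.26, -1.12 and -1.04 at 1, 3 and 6 hpi. R35K minus WT gave -0.59 and 0.71 at 1 and 18 hpi for Blnk. Blnk in R35K against R35A differed by 0.63 and 0.89 at 1 and 6 hpi. For Btk, the kinase, R35A minus WT came to -1.34, -0.96 and -0.89 at 1, 3 and 6 hpi. The differences of R35K from WT for Btk came to 1.06 at 18 hpi. Between the mutants, Btk differed by 0.97, 0.71, 0.91 and 0.78 at 1, 3, 6 and 18 hpi (R35K minus R35A). For Cd22, the inhibitory receptor, R35A minus WT came to -0.73, 1.07 and 1.35 at 1, 18 and 120 hpi. R35K minus WT gave 0.74, 1.47 and 1.26 at 6, 18 and 120 hpi for Cd22. Cd22 in R35K against R35A differed by 0.83, 0.82 and 0.66 at 1, 3 and 6 hpi.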

How the results depend on the processing

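Under the alternatives 6275 values were taken. They include counts of called genes, and values at a 2-fold threshold or with unadjusted p that reuse the main differences, none of which can change direction. Of the others, 0 changed direction past the threshold. At a 2-fold threshold 5 of the 9 genes were called lower for WT at 1 hpi, as were 735 of all 16988 genes. For R35K from 6 to 18 hpi it was 5, beside 330 of 16434. Called higher was 1 each for R35A minus WT at 18 hpi (523 of 16988), R35A at 1 hpi minus WT at 18 hpi (603), R35K minus WT at 120 hpi (781 of 17277) and R35K minus R35A at 1 hpi (179). For R35K minus WT at 3 hpi 1 was called lower (200 of 17277). The number was 0 for R35K minus WT at 1 and 6 hpi (651 and 753 of all genes higher, 273 and 274 lower). It was 0 for R35K minus R35A at 3, 6, 18 and 120 hpi (115, 207, 133 and 55 higher, 55, 56, 80 and 46 lower). In WT cells it was 0 from 1 to 3 hpi (15 higher, 29 lower) and from 3 to 6 hpi (36 and 28). With DESeq2's Wald test or its size factors 0 were called for WT from 3 to 6 hpi, without a filter on low counts 1 was called for R35K minus WT at 120 hpi, and with unadjusted p 2 were called for R35K minus R35A at 120 hpi. Leaving out 1 library moved the number called between 0 and 1 for WT from 3 to 6 hpi, between 1 and 2 for R35K minus WT at 120 hpi and between 1 and 2 for R35K minus R35A at 120 hpi. The lowest count came without WT replicate 2 at 3 hpi or replicate 1 at 6 hpi in the first, without R35K replicate 2 at 0 or 120 hpi in the second, and the highest without R35A replicate 1 at 120 hpi in the third. The authors' log2 normalized counts, which carry no test here, moved 125 of 405 values of single members by more than 1 replicate SD and turned the direction of 0 called ones. The median move was 0.0467 and the largest 3.07 on the log2 scale, in Vpreb2 for WT at 120 hpi against 0 hpi (-12.05 to -8.98, with 0 counts at 120 hpi). The causes were not tested. Replicate numbers did not pair the libraries (median correlation of same-numbered deviations -0.0059 over 153 pairs of groups), and the fit with a replicate block changed 0 of 450 results, with 9 members called for WT at 1 hpi as without it. Genes with under 10 counts per library, as Vpreb1, Vpreb2, Vpreb3 and Igll1 had in most libraries at 120 hpi, are limited by depth.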
